A study of Arabidopsis thaliana with 3 samples.

Results

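Histone deacetylase 6 (HDA6) removes acetyl groups from histones and silences transposons and repeats in Arabidopsis thaliana. The 8 genes described here encode proteins that act in DNA methylation, its removal or gene silencing: LDL1, LDL2, SUVH4, MET1, CMT3, DRM2, DDM1 and ROS1. They were chosen by name, out of 27444 nuclear protein-coding genes, and the question is whether HDA6-GFP lay at these genes themselves. Chromatin immunoprecipitation followed by sequencing (ChIP-seq) with an antibody against green fluorescent protein (GFP) was applied to 14-day-old Col-0 seedlings. All plants, those of the input included, carried HDA6 fused to GFP under the HDA6 promoter, and the labels do not say whether they kept a working endogenous HDA6. The series holds 2 ChIP samples and 1 input sample. The labels give at least 5 pooled immunoprecipitations for every sample, although an input is not itself immunoprecipitated. What is used here is a ChIP list of regions and an input list of intervals on the TAIR10 build, with positions as their only values. As the samples of a group are not kept apart in them, the values below have no replicate error and no test, and the read depth is unknown.

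In plants, DNA is methylated at cytosines in CG, CHG and CHH contexts, where H is any base but G. MET1 copies CG methylation after replication, CMT3 maintains CHG methylation, and DRM2 adds methylation where small RNAs guide it. SUVH4, also called KRYPTONITE, methylates lysine 9 of histone H3, the mark that CMT3 binds, so that both marks reinforce each other. DDM1 is a chromatin remodeller that opens heterochromatin to the methyltransferases, and ROS1 is a DNA glycosylase that removes methylated cytosine. LDL1 and LDL2 are relatives of the human histone demethylase LSD1 and repress the flowering gene FLC and clock genes. HDA6 is known to bind MET1, SUVH4, LDL1 and LDL2 as proteins, which is a separate matter from binding at their genes.

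HDA6-GFP regions lay at 2 of the 8 genes, LDL1 and DRM2. A gene was counted where a region overlapped its body or the 1 kb on either side by at least 1 bp. Under the same rule 8.56% of all nuclear protein-coding genes had a region. All 8 genes lie on chromosome arms, more than 3 Mb from the midpoint of their centromere, where 7.04% of protein-coding genes had one. With only 8 genes, a count of 2 is not read here as different from that background. LDL1 was the single member with a region in the gene body, against 5.80% of all protein-coding genes and 4.69% of arm genes. With a flank of 500 bp it was also the single one, against 6.94% of all protein-coding genes. Among the 3749 widest of the 7477 nuclear regions, none lay at any of the 8. These widest regions lay at 3.21% of all protein-coding genes, those near centromeres included, and their share on the arms is not given here. The other 6 genes had a region neither in the body nor within 1 kb.

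**Figure D1:**
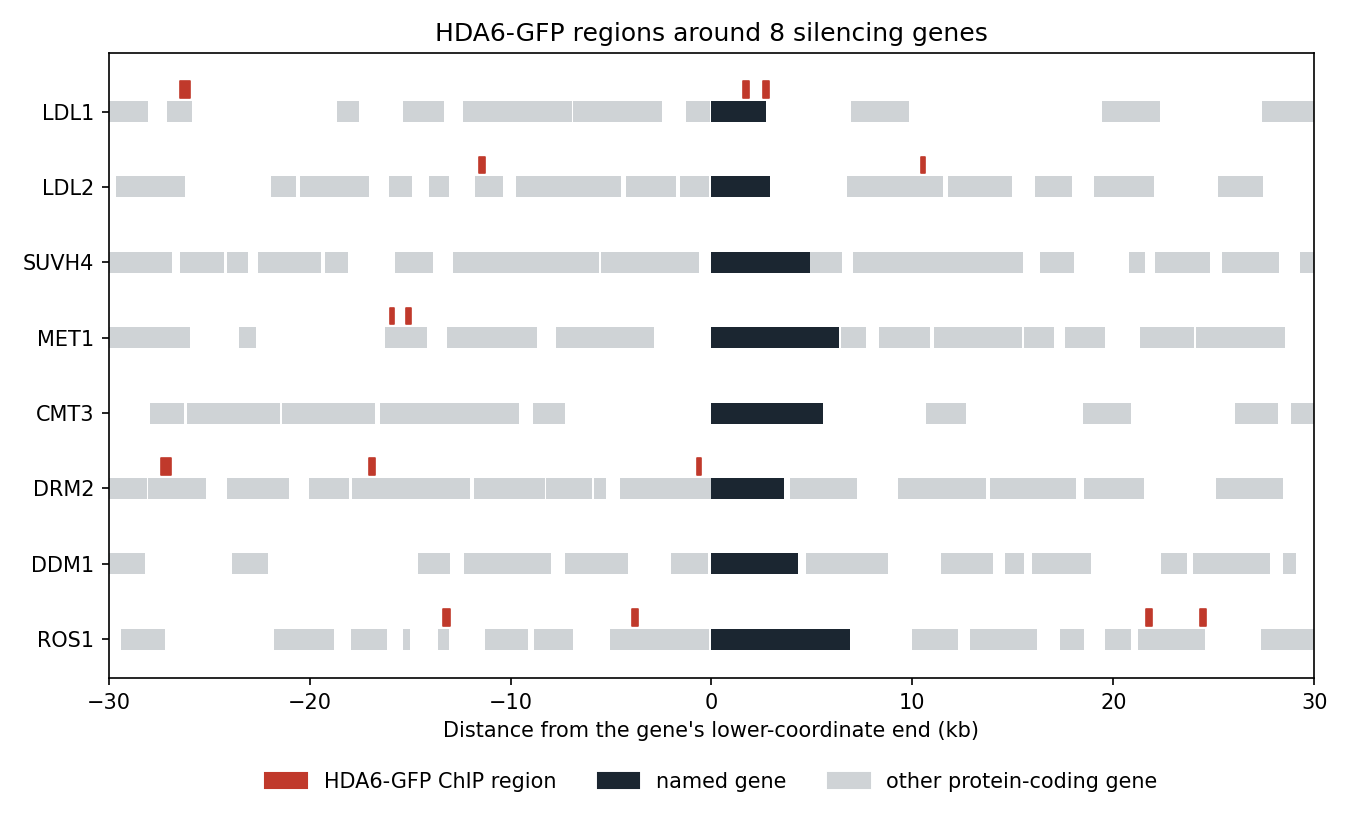
HDA6-GFP ChIP regions (red) around the 8 genes (black) and other protein-coding genes (grey), plotted by distance in kb from the lower-coordinate end of each gene. Of the regions drawn, 2 touch LDL1 and 1 lies 534 bp from DRM2, whereas none lies within 30 kb of SUVH4, CMT3 or DDM1.

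LDL1 (AT1G62830) carried 2 separate regions. The first, chr1:23266047-23266365, is 319 bp wide and lies wholly inside the gene, 1561 bp from its lower-coordinate end and 856 bp from its higher one. The second, chr1:23267075-23267341, is 267 bp wide and straddles the higher-coordinate end, with 147 bp inside the gene and 120 bp beyond it. The pair is separated by 709 bp and together covers 466 bp, or 17.03%, of the 2736-bp gene. At least 2 regions in the body or 1-kb flank were found at 1.18% of all protein-coding genes and at 0.701% of those on the arms. With the body alone, 0.594% of all protein-coding genes and 0.371% of arm genes had 2 or more. The gene table used gives no strand, so which of the gene's ends is its start is not stated here. Neither region touches another annotated gene.

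Both LDL1 regions were ordinary in size. Of the 1634 arm regions, 61.4% are no wider than the first and 29.6% no wider than the second, and the median arm region measured 297.5 bp. Both lie wholly inside 1 input interval of 2716 bp, so no break in the input list separates them. A wider input interval of 5346 bp ends in the 1-kb flank of LDL1, on its lower-coordinate side. It exceeds the widest interval at nearly all other genes, since 98.6% of protein-coding genes have a widest interval of this size or less. It does not reach either ChIP region. For scale, the region at HDA6 itself, where the transgene's DNA also maps, measured 4577 bp, and the widest of its 2 input intervals measured 4493 bp.

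DRM2 (AT5G14620) had its region outside the gene. The region, chr5:4714378-4714571, is 194 bp wide and ends 534 bp before the lower-coordinate end of DRM2. All 194 bp of it lie inside the neighbouring protein-coding gene AT5G14610, so the region is assigned to DRM2 through its flank alone. It is among the narrowest of the list, as 1.41% of arm regions are this narrow or narrower. It lies wholly within 1 input interval of 883 bp. On the opposite side of DRM2 the next region was 119135 bp away, and all 4 regions within 100 kb of the gene were on the lower-coordinate side.

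**Figure D2:**
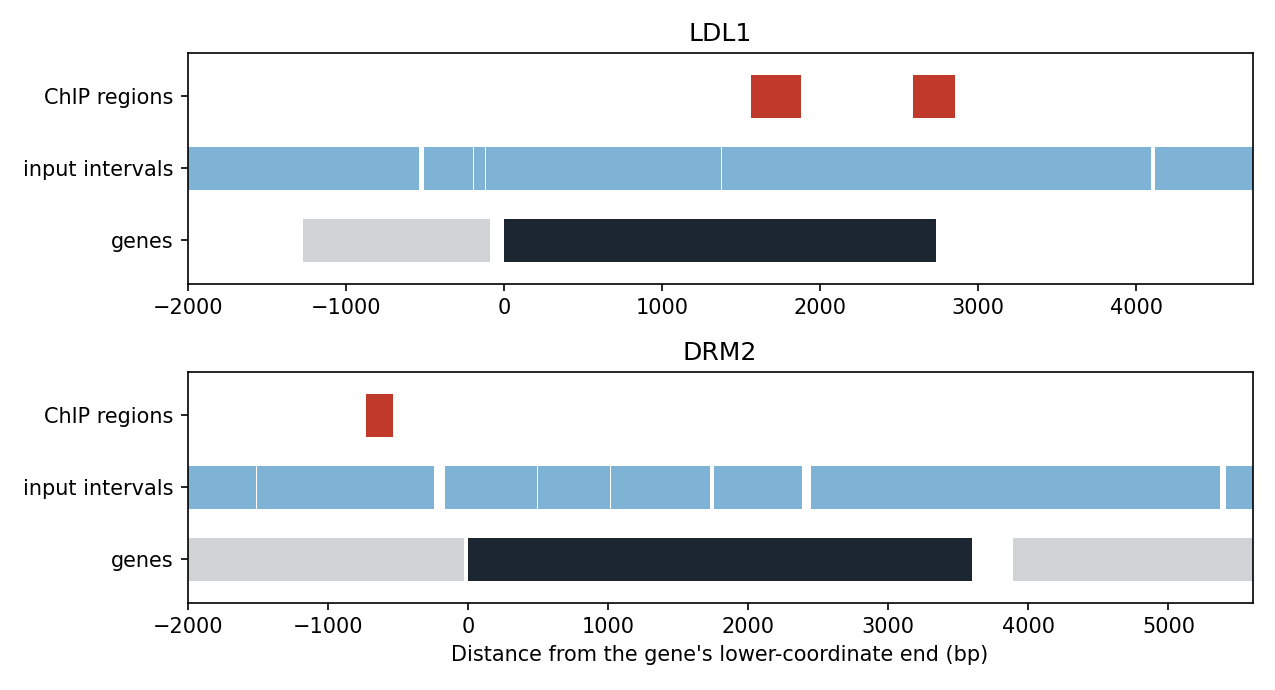
LDL1 (top) and DRM2 (bottom) with HDA6-GFP ChIP regions (red), input intervals (blue) and genes (black for the named gene, grey for others), by distance in bp from the lower-coordinate end of the gene. The 2 LDL1 regions share 1 input interval, and the DRM2 region lies over the neighbouring gene. Input gaps of a few bp are too small to be seen.

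Among the histone-modifying members, LDL2 and SUVH4 differed from LDL1 in having no region of their own. The nearest region to LDL2 (AT3G13682) was 7538 bp away at chr3:4489305-4489509, 205 bp wide and inside AT3G13690. On its other side the nearest region was 11283 bp away. SUVH4 (AT5G13960) was 35722 bp from the nearest region, chr5:4541972-4542345, which touches ROXY2, a glutaredoxin gene known from anther development. On the other side of SUVH4 there was none for 129343 bp. Of arm genes, 23.2% were as near to a region as LDL2 or nearer, and 65.1% as near as SUVH4 or nearer. By this list LDL2 lay nearer to a region than SUVH4 did, but that order turns with the 3749 widest regions alone, where LDL2 was 317155 bp and SUVH4 35722 bp from the nearest.

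The 3 DNA methyltransferases spanned nearly the whole range of distances. DRM2 was 534 bp from its region, and 5.73% of arm genes were as near or nearer. MET1 (AT5G49160) was 14960 bp from the nearest region, chr5:19916922-19917154, where 37.8% of arm genes were as near or nearer. That region and a second one 15779 bp from MET1 both lie over AT5G49130 and the long non-coding RNA gene AT5G49138. CMT3 (AT1G69770) was 224767 bp from its nearest region, chr1:26478454-26478803, which touches KUP6, a potassium transporter gene. On its other side the nearest region was 563163 bp away. As many as 99.3% of arm genes were as near to a region as CMT3 or nearer.

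CMT3 lies in the longest stretch without an HDA6-GFP region between any 2 neighbouring regions of the 5 nuclear chromosomes. The stretch, chr1:25684956-26478453, measured 793.5 kb, against 553.5 kb for the next longest and a median of 1.61 kb over all 7472 stretches. Only 1634 of the 7477 nuclear regions lie on the arms, so that median is mostly one of stretches near centromeres. A median for the arms is not given here. It holds 195 protein-coding genes, of which CMT3 is the single one of the silencing lists described below. In the input list, 1157 intervals covered 98.02% of the stretch, at 1.46 intervals per kb. Over the nuclear chromosomes the values were 97.8% and 1.43 intervals per kb. The widest input gap within the stretch is not given here. The arms of chromosome 1 had the lowest share of protein-coding genes with a region of the 5 chromosomes, at 6.25%, against 8.16% for the arms of chromosome 4, the highest. The stretch was singled out after its length was seen.

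DDM1 and ROS1, the remodeller and the demethylase, also had no region. DDM1 (AT5G66750; CHR1 in the gene table) was 36869 bp from the nearest region, chr5:26611766-26612028, inside AT5G66670, and 66.1% of arm genes were as near or nearer. It lies in a region-free stretch of 243.5 kb, which ranks 39 of the 7472 by length, those near centromeres included. ROS1 (AT2G36490; DML1 in the gene table) was 3660 bp from the nearest region, chr2:15303961-15304247, inside AT2G36480, and 13.8% of arm genes were as near or nearer. ROS1 is known for a promoter whose own methylation state sets its transcription. No region fell within 1 kb of either end of the gene, and on the side away from the nearest region the next was 14744 bp from it. As the gene table gives no strand, the distance to its promoter is not stated.

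**Figure D3:**
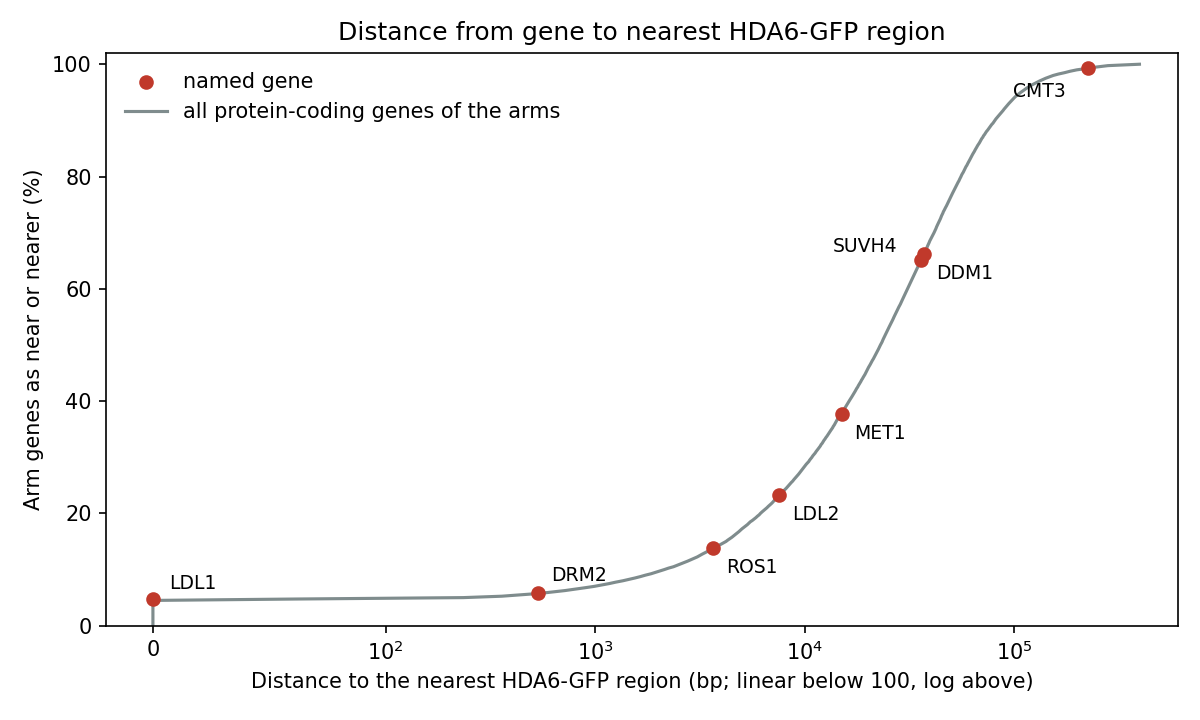
Distance in bp from each of the 8 genes (red points) to the nearest HDA6-GFP region, on the curve of all 24247 arm protein-coding genes (grey), with the share of arm genes as near or nearer in percent on the vertical axis. The genes spread along the whole curve, from LDL1 at 0 bp to CMT3 at 224767 bp.

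Taken over the 8 genes, the distance to the nearest region had a median of 11249 bp. It was 22940 bp over arm protein-coding genes and 20303 bp over all protein-coding genes. The 8 genes are longer, with a median body of 4592 bp against 2111 bp for arm genes, and the distances were not matched for length. With only 8 genes, the lower median is not read here as different from that background. With all regions, the order of increasing distance was LDL1, DRM2, ROS1, LDL2, MET1, SUVH4, DDM1 and CMT3. SUVH4 and DDM1 differ by little more than 1 kb, and without replicate values no neighbours in this order can be told apart beyond error. The order depends on narrow regions. With the widest regions alone it was ROS1 (13012 bp), LDL1 (25949 bp), DRM2 (26919 bp), SUVH4 (35722 bp), MET1 (40059 bp), DDM1 (129847 bp), CMT3 (224767 bp) and LDL2 (317155 bp). The middle 50% of arm genes lay between 8379 and 47704 bp from a region. LDL1, DRM2, ROS1 and LDL2 were nearer than this span, MET1, SUVH4 and DDM1 were within it, and CMT3 was farther.

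How the surroundings of the 8 genes compared with those of other genes depended on the window. Within 100 kb on either side there were 7 regions at MET1, 5 each at LDL1 and ROS1, 4 at DRM2, 3 each at LDL2 and SUVH4, 1 at DDM1 and 0 at CMT3. Their median was 3.5, against 3 for arm genes and for all protein-coding genes. Within 50 kb the median was 2.5, against 1 for arm genes and for all protein-coding genes. Within 200 kb it was 7.5, against 6 for arm genes and 7 for all protein-coding genes. The windows run from the gene ends and include regions in the gene itself. No region within 100 kb was found for 5.93% of arm genes, the class to which CMT3 belongs. SUVH4 changed most with the window, from 1 region within 50 kb to 14 within 200 kb.

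The 28 regions within 100 kb were all different regions, and all of them touched an annotated gene. Of these, 25 touched a protein-coding gene and 3 touched annotated pseudogenes. Their widths ran from 194 to 539 bp with a median of 287.5 bp, close to the arm median of 297.5 bp. At MET1, a pair of them, 436 and 487 bp wide, lies over EXT11, an extensin gene annotated as a pseudogene, 40661 and 40059 bp from MET1. At ROS1, the regions at 14744 and 17402 bp both lie over AT2G36560. Of the 436 other protein-coding genes within 100 kb of the 8, 32 (7.34%) had a region in the body or 1-kb flank, against 7.04% of arm genes. The local share was highest around MET1, with 9 of 53 genes, and was 1 of 60 around DDM1 and 0 of 45 around CMT3.

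**Figure D4:**
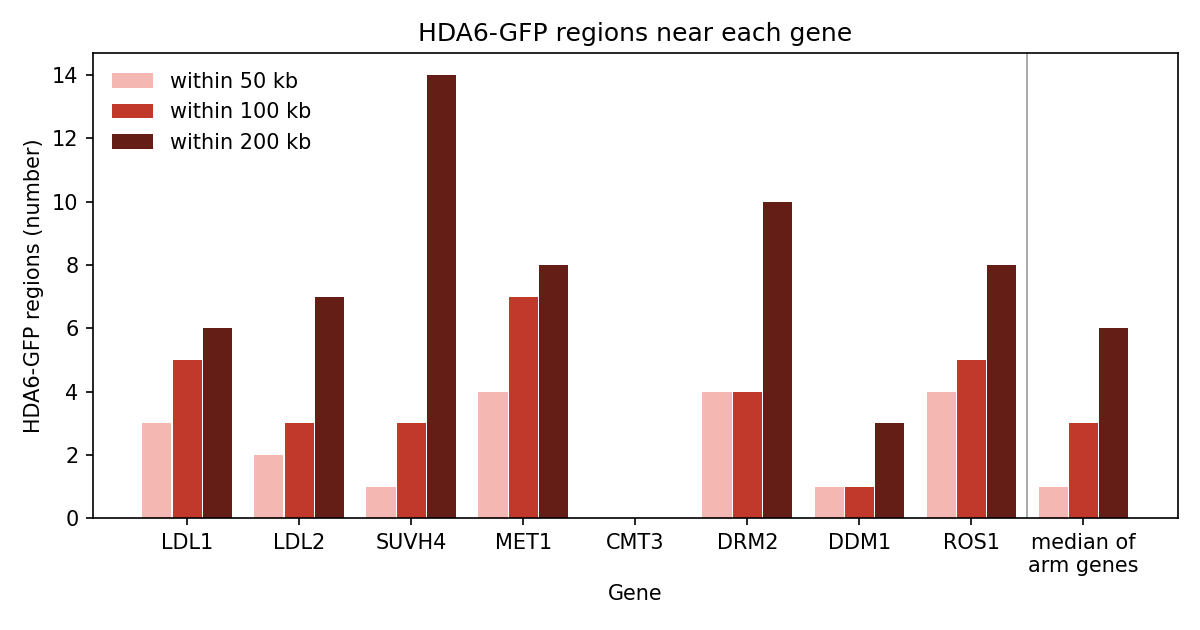
Number of HDA6-GFP regions within 50, 100 and 200 kb of each of the 8 genes, with the median over all arm protein-coding genes at the right. CMT3 has 0 regions at all 3 distances, and SUVH4 has 14 within 200 kb.

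Input intervals covered all 8 genes almost completely. Between 96.7% (DRM2) and 98.9% (LDL1) of the body and 1-kb flanks lay in an input interval. The median over all protein-coding genes was 98.3%. The number of intervals per window was 6 at LDL1, 7 at LDL2, 9 at CMT3 and DRM2, 10 at SUVH4 and DDM1, 11 at MET1 and 12 at ROS1. The uncovered gaps between them measured 1 to 76 bp, with the widest at DRM2. The genes without a region were therefore covered by the input list as fully as those with one. Coverage by intervals is not read depth, which the list does not give.

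Across the wider silencing machinery, 12 of 69 genes had a region, or 17.4%, against 8.56% of all protein-coding genes. The 69 genes fall into 7 lists, DNA demethylation among them, and include the 8 described above. Without those 8, 10 of 61 had one. The genes are long, with a median body of 4401 bp against 2078 bp for all protein-coding genes, and a longer gene offers a wider window. Among genes with a body of at least 3 kb, 10 of 57 in the lists had a region, against 9.14% of all such protein-coding genes and 8.36% of those on the arms. On the arms the count was 11 of 65, against 7.04%. With the widest regions alone the count was 1 of 69 genes (1.45%), against 3.21% of all protein-coding genes. A count of 1 is too small to be read as a change of direction. That 3.21% includes genes near centromeres, and the share of arm genes with one of the widest regions is not given here. No test was made of these differences. The lists were chosen with results of these data known. Of the 14 regions at these genes, 13 are below the nuclear median width of 337 bp. Arm regions are also narrower than that, with a median of 297.5 bp, against 267.5 bp for the 14.

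DNA methyltransferases and their cofactors had a region at 4 of 13 genes, MET2A, VIM2, VIM3 and DRM2, against 8.56% of all protein-coding genes and 9.14% of those of at least 3 kb, as all 13 are. MET2A (AT4G14140; DMT2 in the gene table), a MET1 relative, had a region of 238 bp inside the body, which 3 input intervals covered to 96.6%. VIM2 and VIM3 belong to a family of proteins that bind hemimethylated CG sites and are needed by MET1. Their regions, of 317 and 264 bp, began 239 and 421 bp from the lower-coordinate end of the gene. VIM1, of the same family, was 32450 bp from a region. The VIM genes resemble each other in sequence, and the labels do not say how reads with several matches were placed. DRM1 and DRM3, relatives of DRM2, lay 2505 and 25204 bp from a region. CMT2, which methylates CHH sites in heterochromatin, and CMT1 lay 107004 and 48255 bp away.

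Of the 5 histone demethylases listed, 2 had a region, LDL1 and IBM1, against 8.56% of all protein-coding genes. The list is LDL1, LDL2, LDL3, FLD and IBM1. It is a chosen part of the class, and its share does not stand for all histone demethylases. IBM1, which keeps lysine 9 methylation off gene bodies and is known for a methylated repeat within an intron, was the other gene of the lists with 2 regions. They measured 368 and 293 bp, lay 1913 bp apart inside the 7230-bp gene and covered 9.14% of it. The first was spread over 2 input intervals covering 90.8% of it, and the second lay wholly inside 1. Whether either region overlaps the intron was not examined, as the gene table gives no exons. LDL3 and FLD, the other relatives of LDL1, were 37958 and 22673 bp from a region.

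DNA demethylation genes had a region at 2 of 8, against 8.56% of all protein-coding genes, and 1 of the 2 counts through a short overlap of its flank. IDM1 (AT3G14980; ROS4 in the gene table), a histone acetyltransferase that prepares sites for ROS1, had one of 255 bp inside the body. MBD7, a methyl-CG binding protein of the same pathway, had one 934 bp away that lies inside SBT5.4, with 67 bp within the 1-kb flank. DML2, DME and DML3, the other DNA glycosylases, lay 10146, 31488 and 33318 bp from a region, all farther than ROS1.

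The remaining lists had a region at 1 gene each, against the same 8.56%. Among the SUVH and SUVR histone methyltransferases it was SUVR4 (1 of 12), whose region of 236 bp lies in the body. SUVH5 and SUVH6, which act redundantly with SUVH4, were 4654 and 31736 bp from a region. Among remodellers and MORC or MOM1 silencing factors it was CLSY1 (1 of 10; CHR38 in the gene table), a partner of RNA polymerase IV, with 314 bp inside the body. CLSY1 lies 0.758 Mb from the midpoint of the centromere of chromosome 3, where regions are dense: 47 were found within 100 kb of it, and 20.1% of protein-coding genes within 3 Mb of a centromere midpoint had a region under the same rule. In RNA-directed DNA methylation it was NRPE1 (1 of 18; NRPD1B in the gene table), the largest subunit of RNA polymerase V, with 317 bp that end 290 bp before the higher-coordinate end of the gene. Of the other HDA6 complex partners it was MSI5 (1 of 3), with a region of 249 bp that lies 202 bp from the gene and touches no annotated gene.

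**Figure D5:**
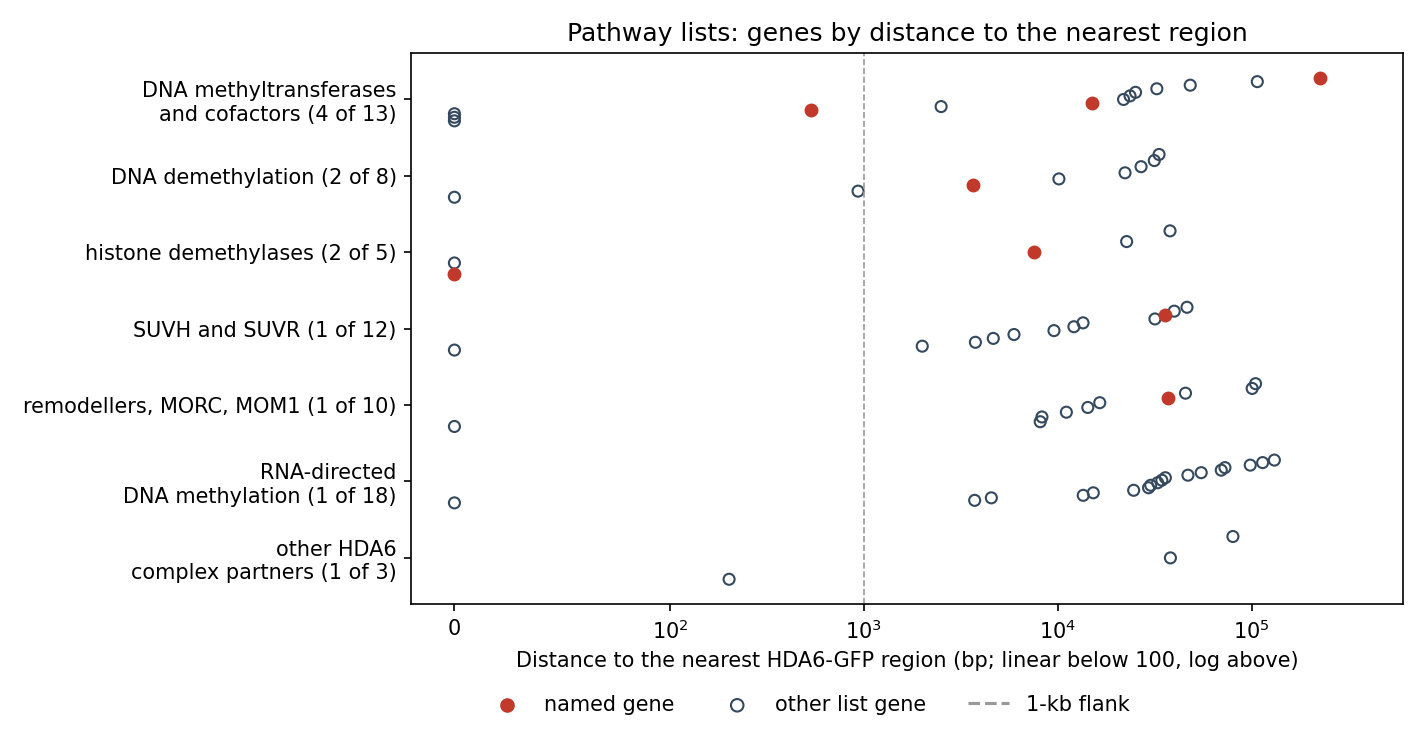
Distance in bp to the nearest HDA6-GFP region for the 69 genes of 7 silencing lists, with the 8 named genes in red, other list genes as open circles and the 1-kb flank as a dashed line. The count beside each list gives genes with a region out of all its genes. Shares run from 2 of the 5 histone demethylases listed to 1 of 18 genes of RNA-directed DNA methylation.

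Genes far from any region were also found outside CMT3. Of the 69, 6 had none within 100 kb: CMT3, CMT2, MORC1, MORC2, AGO9 and DMS3. That is 8.70%, against 5.93% of arm genes and 5.32% of all protein-coding genes. MORC1 and MORC2 are neighbours on chromosome 4 and share their nearest region, at 104807 and 100675 bp. AGO9, an Argonaute protein, and DMS3, a component of the complex that recruits RNA polymerase V, were 113979 and 131040 bp away. The median distance over the 69 genes was 22248 bp, against 22940 bp for arm genes and 20303 bp for all protein-coding genes.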

How the data were processed

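The submitters' processing notes name Bowtie, SICER and TAIR10, with tool versions, roles, settings and any pooling of replicates not given in the sources used here. Each line that the authors deposited holds a start and an end in bp and no other measure. Positions count from 1 here. The 8 members and all 69 list genes were found by locus in a RefSeq gene table (assembly TAIR10.1). Its nuclear coordinates were used as TAIR10 positions and are not printed.

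A gene had a region where 1 of the 7477 nuclear regions overlapped its body or the 1-kb flank by at least 1 bp. Distances run from the gene end to the nearest region border. Arms begin 3 Mb from a centromere midpoint. Genes named are the 8 members, list genes with a region, the genes their nearest regions touch, and HDA6. Other relatives, distant list genes and other neighbours (EXT11, AT2G36560) were chosen after their values were seen.

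Members, lists and rules were chosen with earlier results of these data known. No test was made, since the lists carry no sample or replicate names and are taken as pooled. The interval code (Python 3.11.15, numpy 2.4.6, pandas 2.3.3) was tested on simulated data. Neither sequences nor exons were used here.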

Additional observations from a re-analysis of the deposited data

How the results depend on the processing

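The count of 2 members with a region was 1 (LDL1) with no flank or one of 500 bp, and 0 when only the 3749 widest regions were kept. It was 2 with a 2-kb flank (11.5% of all protein-coding genes), a minimum overlap of 100 bp (8.26%) or the region midpoint inside the window (7.79%). The count of 12 among the 69 list genes was between 9 and 12 under the same settings, but 1 (IBM1) with the widest regions alone, against 3.21% of all protein-coding genes. The counts at these genes therefore rest mainly on regions below the nuclear median of 337 bp, as most arm regions are. The arm median was 297.5 bp, and the share of arm genes with one of the widest regions is not given here. The cause of the lower counts was not tested. The median distance over the 8 members was 13670.5 bp from midpoint to midpoint, against 11249 bp, and 37890.5 bp with the widest regions. Distances of other genes under these settings are not given here, so the members cannot be compared with them. With the widest regions CMT3 and SUVH4 kept their distance, because their nearest region is one of these. The other 6 were farther, at 13012 bp (ROS1), 25949 bp (LDL1), 26919 bp (DRM2), 40059 bp (MET1), 129847 bp (DDM1) and 317155 bp (LDL2). The median number of regions around the members was 2.5 within 50 kb and 7.5 within 200 kb, against 1 and 6 for arm genes and 1 and 7 for all protein-coding genes. Restricting the lists to the arms, to genes of at least 3 kb or to genes other than CLSY1 was chosen after seeing the data and gave 11, 10 and 11 genes. No paired analysis was possible because neither list separates the replicates, and for the same reason no replicate could be left out. Read depth is unknown, so a gene without a region cannot be said to lack HDA6-GFP.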

Other observations

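Of the 69 silencing genes, 4 lie within 3 Mb of a centromere midpoint: CLSY1, DCL3, MET2B (AT4G08990) and RDR2. Regions within 100 kb numbered 47 at CLSY1, 19 at DCL3, 8 at MET2B and 3 at RDR2, against a median of 11 for protein-coding genes in that part of the genome. A region touched CLSY1 alone, while DCL3, which cuts the double-stranded RNA made by RDR2, was 3731 bp from one, MET2B 21859 bp and RDR2 34443 bp.

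The gene NRPD1, which encodes the largest subunit of RNA polymerase IV, lies on the same arm as LDL1 and is 29415 bp from its nearest region, at chr1:23324934-23325270. The same region is the nearest one to LDL1 on its higher-coordinate side, at 57713 bp, and touches AT1G62970.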
